A study of Mus musculus with 2 samples.

Results

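The genes described here encode the nuclear-encoded subunits of oxidative phosphorylation, the mitochondrial machinery that makes ATP from electrons and oxygen. They were chosen by name alone, as every gene of the deposited table whose symbol begins with Nduf followed by a subunit letter and number, is Sdha to Sdhd, or begins with Uqcr, Cox4 to Cox8 or Atp5. The rule gave 84 of the 27031 genes in the table, 37 for complex I, 4 for complex II, 8 for complex III, 18 for complex IV and 17 for complex V. One of them, Atp5s, carries an Atp5 name but encodes a coupling factor and not a structural subunit.

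MC38 colorectal cancer cells were implanted under the skin of C57BL/6 mice aged 6 to 8 weeks, and live CD45+ cells were sorted from the tumors on day 13. Mice of the control group received vehicle, and mice of the telmisartan group received telmisartan, a blocker of the angiotensin II type 1 receptor, at 5 mg/kg by daily gavage from the day of implantation. Sorted cells of 5 mice per group were pooled, labelled with Sample Tag 1 (control) or Sample Tag 2 (telmisartan), and captured together on a BD Rhapsody cartridge. Each group was therefore 1 pool, no difference below has a replicate check, and all intervals are exact 95% intervals that cover counting error only.

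Electrons from NADH enter the respiratory chain at complex I and those from succinate at complex II. They pass through complex III and cytochrome c to complex IV, which hands them to oxygen, and the proton gradient built on the way drives ATP synthase, complex V. Macrophages differ in how far they rely on this chain or on glycolysis, and most of its subunits come from nuclear genes while a small core is encoded by the mitochondrial genome.

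The table held 20726 cell barcodes, and 20726 of them were also in the Sample Tag table, since both libraries came from the same cells. Tags called 8738 control cells with 54619115 UMIs (unique molecular identifiers, which count molecules) and 10222 telmisartan cells with 42401764 UMIs. The telmisartan cells were shallower, with a median of 2037.5 UMIs against 3970.5, and had a median of 23.3% mitochondrial UMIs against 12.1%. After limits on genes, mitochondrial share and doublets, 4535 control cells (41591125 UMIs) and 4434 telmisartan cells (30921742 UMIs) remained. By markers, 8048 of the 8969 kept cells were macrophage-like (4049 control, 3999 telmisartan), 664 dendritic-like (366 and 298), 185 T-like (72 and 113) and 72 neutrophil-like (48 and 24). Ptprc, which encodes CD45, was present in every class, at 425 UMIs per 1000000 (CPM) in control and 363 in telmisartan macrophage-like cells.

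The mice are described as female, but the transcripts go against that in both groups. Over the 4 classes, Xist, the RNA of the inactive X chromosome, had 7 UMIs in control and 6 in telmisartan cells. The Y-linked genes Ddx3y (3524 and 3288 UMIs), Eif2s3y (2581 and 1771), Uty (1375 and 1335) and Kdm5d (550 and 294) were present in both. The cause was not tested.

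In macrophage-like cells the 84 genes together were slightly lower with telmisartan. They held 514145 of the control UMIs and 357134 of the telmisartan UMIs, or 13482 (13445 to 13519) and 12594 (12553 to 12636) CPM. The log2 ratio of telmisartan over control was -0.10 (-0.10 to -0.09). Of the 80 genes with at least 100 UMIs over both groups, 62 were lower with telmisartan, where 57.1% of all 11073 genes passing the same minimum were lower. The median gene of the 80 stood at -0.10, against -0.05 over all genes and -0.02 over the 1566 genes of similar abundance. Single genes rarely moved far. Only 9 of the 80 (11.2%) were lower by at least 1.2-fold, against 17.5% of all genes, and 3 (3.75%) were higher by as much, against 15.6%. The pattern was thus many small shifts to the lower side and fewer large ones than over all genes, and the part that the high counts of these genes play in the second was not tested.

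All 5 complexes were lower with telmisartan in the cells as found. Complex I held 3567 CPM in control and 3338 in telmisartan cells, a log2 ratio of -0.10 (-0.11 to -0.08). Complex II held 446 and 407 (-0.14, -0.17 to -0.10) and complex III 1258 and 1164 (-0.11, -0.13 to -0.09). Complex IV held 3681 and 3489 (-0.08, -0.09 to -0.07), and complex V 4529 and 4197 CPM (-0.11, -0.12 to -0.10). The interval of complex IV (from -0.089) lay above those of complexes II, III (up to -0.092) and V and overlapped that of complex I. Differences between complexes were not tested. The shares of the complexes were close in the groups, and their differences were not tested. Complex I made up 26.5% of the members' UMIs in each, complex II 3.31% and 3.23%, and complex III 9.33% and 9.24% (control and telmisartan). Complex IV made up 27.3% (27.2 to 27.4) and 27.7% (27.6 to 27.9), with intervals that do not overlap, and complex V 33.6% and 33.3%.

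The control and telmisartan macrophages did not hold the same cell states in equal parts. The largest cluster of control macrophage-like cells was cluster 3 with 1039 cells, and the largest of telmisartan cells was cluster 1 with 1118. When the 7 macrophage subclusters described below were given the same weights in both groups (their shares of the UMIs of both), a calculation added after the data were seen, the members stood at 13216 and 12983 CPM, a log2 ratio of -0.03. By the same weights 50 of 80 genes (62.5%) were lower, against 56.5% of all genes, and the median gene stood at -0.03, as over all genes. Past 1.2-fold were 3 lower (3.75%, against 14% of all genes) and 3 higher (3.75%, against 13%). Of the 9 genes lower by 1.2-fold in the cells as found, 2 remained past that fold (Cox6b2 and Ndufa4l2), with Atp5s as the third, and the same 3 higher genes remained. At an equal mix the shift of the members was thus smaller and near that of all genes, which is not a result about the members.

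**Figure D1:**
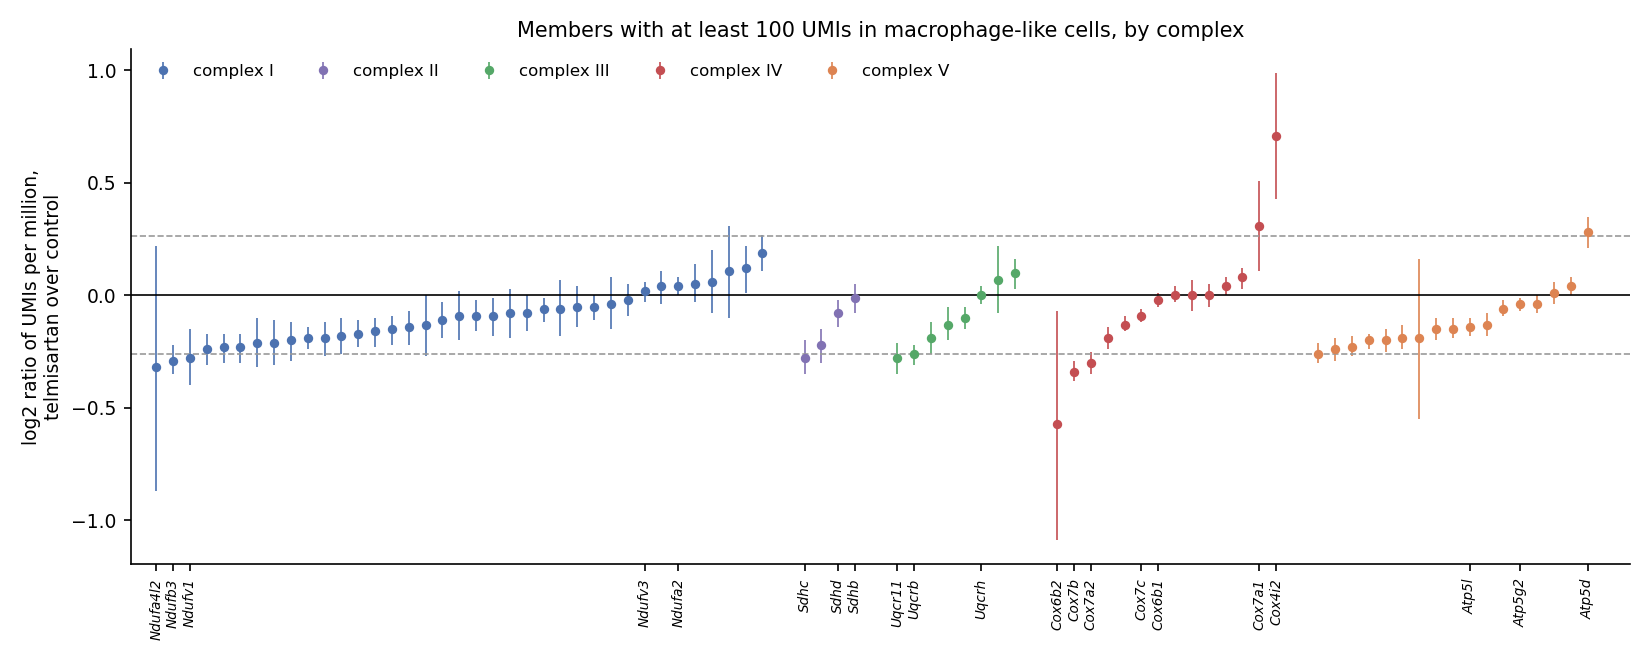
Log2 ratio of CPM, telmisartan over control, for the 80 genes with at least 100 UMIs in macrophage-like cells, grouped by complex, with names for those past a 1.2-fold difference and the 2 most abundant of each complex; bars are exact 95% intervals for counting error and dashed lines mark a 1.2-fold difference. Most genes lie a little below 0, 9 lie below the lower line and 3 above the upper one, in these cells as found.

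Complex I takes electrons from NADH and pumps protons. Its 7 catalytic core subunits, which carry the flavin and the iron-sulfur clusters or bind quinone, held 378 and 360 CPM in control and telmisartan macrophage-like cells (log2 ratio -0.07, -0.11 to -0.03). The 30 other genes of the complex, mostly accessory subunits that stabilise it, held 3189 and 2978 (-0.10, -0.11 to -0.09). The core stood at 370 CPM in both groups (0.00) at an equal mix of subclusters, and the other genes at 3129 and 3059 (-0.03). UMIs count molecules and are not divided by transcript length. The accessory Ndufa2 was the most abundant gene of the complex, at 323 and 332 CPM, followed by Ndufv3 at 245 and 248. Both were close to equal in the groups, with log2 ratios of 0.04 and 0.02. Of the 37 genes, 29 were lower with telmisartan, where 57.1% of all genes were, and 26 were lower at an equal mix of subclusters, where 56.5% of all genes were.

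Within complex I, 2 genes with at least 200 UMIs were lower by 1.2-fold in the cells as found. The accessory subunit Ndufb3 stood at 142 (138 to 146) CPM in control and 116 (112 to 120) in telmisartan cells, a log2 ratio of -0.29. Ndufv1, which binds NADH and the flavin, stood at 35.3 and 29.2 (-0.28, -0.40 to -0.15). At an equal mix of subclusters both were under that fold, at -0.22 and -0.18. Sdha, Uqcrfs1 and Atp5b below were chosen for naming after their values were seen.

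Complex II, succinate dehydrogenase, also works in the TCA cycle and is encoded by nuclear genes alone. Its 4 genes were all lower with telmisartan in the cells as found, where 57.1% of all genes were. At an equal mix of subclusters 2 of the 4 were lower, where 56.5% of all genes were. Sdhd, a membrane anchor, was the most abundant at 140 and 133 CPM (-0.08, -0.14 to -0.02), and the iron-sulfur subunit Sdhb followed at 107 and 106 (-0.01, -0.08 to 0.05). Their values at an equal mix were 0.00 and 0.07. The other anchor, Sdhc, passed 1.2-fold at 102 and 84.6 (-0.28, -0.35 to -0.20), and stood at -0.18 with equal subclusters. The flavin-bearing Sdha held 96.5 and 82.7 CPM (-0.22, -0.30 to -0.15), and stood at -0.16 at an equal mix.

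Complex III passes electrons from ubiquinol to cytochrome c. Its hinge protein Uqcrh was the most abundant gene and equal in the groups, at 317 and 316 CPM (0.05 at an equal mix). Uqcrb, a subunit near the quinone site, stood at 267 (262 to 272) in control and 222 (217 to 228) in telmisartan cells, a log2 ratio of -0.26. Uqcr11, a small accessory subunit, stood at 117 and 96.1 (-0.28, -0.35 to -0.21). These were the 2 genes of the complex past 1.2-fold, and with equal subclusters they stood at -0.16 and -0.21. The Rieske iron-sulfur protein Uqcrfs1, the catalytic subunit among the members, was on the other side of 0 at 103 and 110 CPM (0.10, 0.03 to 0.16). The nuclear-encoded cytochrome c1 of this complex has another name and was outside the rule.

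Complex IV, cytochrome c oxidase, hands electrons to oxygen. Its nuclear-encoded subunits surround a core made in the mitochondrion, and 14 of its 18 genes had at least 100 UMIs in macrophage-like cells. Cox7c was the most abundant of all 84 genes, at 668 and 627 CPM (-0.09, -0.12 to -0.06), and Cox6b1 followed within the complex at 506 and 498 (-0.02, -0.05 to 0.01), and at an equal mix these stood at -0.02 and 0.04. The median of the 14 was -0.01, yet the complex held the lowest ratio of the module, Cox6b2 at -0.57, and the highest, Cox4i2 at 0.71. Cox7b fell from 299 (294 to 305) to 237 (231 to 242) CPM, a log2 ratio of -0.34, and Cox7a2 from 216 (212 to 221) to 175 (170 to 180), at -0.30. With equal subclusters they stood at -0.22 and -0.20, under the 1.2 fold.

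Complex IV is also where tissue-restricted isoforms occur. Cox4i2, an isoform known from lung and induced by low oxygen, rose from 5.11 (4.42 to 5.88) CPM in control to 8.36 (7.33 to 9.49) in telmisartan macrophage-like cells, a log2 ratio of 0.71 (0.43 to 0.99). Its share of Cox4i1 and Cox4i2 UMIs went from 1.23% (1.06 to 1.41) to 1.99% (1.75 to 2.26). Cox7a1, the isoform of heart and skeletal muscle, rose from 11 to 13.6 CPM (0.31, 0.11 to 0.51). It was higher in 7 of 7 subclusters, the one gene of the 80 (1.25%) for which this held, against 5.82% of all genes and 11.7% of the 1566 of similar abundance. Both stayed past 1.2-fold with equal subclusters, at 0.67 and 0.33.

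The shares within the Cox7a family shifted with them. Cox7a2, the widely expressed form, made up 50.1% (49.3 to 50.8) of the family's UMIs in control and 44.5% (43.6 to 45.5) in telmisartan macrophage-like cells. Cox7a2l, which helps join complexes III and IV into supercomplexes, made up 47.4% and 52%, and its own level was 205 CPM in both groups. Cox7a1 made up 2.55% and 3.47%. In dendritic-like cells Cox7a2 was the smaller part, at 37.1% (34.6 to 39.6) in control and 33.8% (30.9 to 36.8) in telmisartan cells. Cox7a2l was the larger, at 61.5% and 64.9%. In T-like cells Cox7a2 made up 42.3% and 47.1%, and the intervals of Cox7a2 overlap in both classes. Cox7a1 made up 3.76% (1.64 to 7.27) and 0.476% (0.0121 to 2.62) in T-like cells, from 8 and 1 UMIs.

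The other isoform families were almost entirely of their common form. Cox6a2, the muscle form of Cox6a1, had 28 control and 13 telmisartan UMIs in macrophage-like cells, or 0.263% and 0.16% of the pair. Cox6b2, the testis form, had 102 and 51 UMIs, or 0.526% and 0.36%, with a log2 ratio of -0.57 (-1.09 to -0.07). Cox7b2 had 11 UMIs in all kept cells, and Cox8b and Cox8c had 1 each, beside 10401 and 8148 UMIs of Cox8a in control and telmisartan macrophage-like cells. Ndufa4, grouped by name with complex I and now known as a subunit of complex IV, held 44.7 and 38.6 CPM. Its hypoxia-induced relative Ndufa4l2 made up 4.43% and 4.12% of the pair, with 79 and 47 UMIs and a log2 ratio of -0.32 whose interval of -0.87 to 0.22 spans 0. Ndufa4l2 stood at -0.60 at an equal mix, lower in 3 and higher in 3 subclusters.

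Complex V couples proton flow to ATP synthesis. The 5 genes of its F1 head and central stalk held 1192 and 1090 CPM (-0.13, -0.15 to -0.11), and its proton-carrying ring, made from Atp5g1, Atp5g2 and Atp5g3, held 1232 and 1160 (-0.09, -0.11 to -0.07). The peripheral stalk held 1004 and 928 (-0.11, -0.14 to -0.09), and the other membrane subunits 1097 and 1015 (-0.11, -0.13 to -0.09). Atp5g2 was the most abundant gene of the complex at 577 and 562 CPM (-0.04, -0.07 to -0.01), and Atp5l, a membrane subunit at the dimer contact, followed at 392 and 356 (-0.14, -0.18 to -0.10). All these parts lay a little lower in the cells as found. The ring at an equal mix of subclusters stood at 1203 and 1202 CPM (0.00), the F1 head and the peripheral stalk at -0.04 each and the other membrane subunits at -0.03, with Atp5g2 at 0.02 and Atp5l at -0.05.

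Subunits of the F1 part nonetheless differed from each other. Atp5d, the delta subunit of the central stalk, rose from 83.8 (81 to 86.8) to 102 (98 to 105) CPM, a log2 ratio of 0.28, and stood at 0.29 with equal subclusters. The catalytic beta subunit Atp5b stood at 263 and 220 (-0.26, -0.30 to -0.21), just short of the 1.2 fold, and was lower in 7 of 7 subclusters with -0.15 at an equal mix. In all, 10 of the 80 genes (12.5%) were lower in 7 of 7 subclusters, against 7.04% of all genes and 11.4% of the 1566 of similar abundance, so the share is near the background.

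The ring is made of 1 protein encoded by 3 genes that differ in their import signals. Atp5g1 made up 24% (23.6 to 24.4) of their UMIs in control and 21.8% (21.4 to 22.2) in telmisartan macrophage-like cells. Atp5g2 made up 46.9% and 48.5%, and Atp5g3 29.1% and 29.7%. In dendritic-like cells the Atp5g1 share was 23.5% and 23.2%, and in T-like cells 18% and 17.4%.

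The macrophage-like cells were clustered again into 7 subclusters, named here by number and leading genes, and the members differed more between these than between groups. Over both groups the members reached 15211 CPM in subcluster 6 (Ccna2, Top2a, genes of mitosis) and 15170 in subcluster 7 (Mcm5, Cdc6, genes of DNA replication). Subcluster 2 (Serpina3g, Cxcl9) held 14168, subcluster 3 (Gas6, Cbr2, Folr2) 12914 and subcluster 1 (Dcstamp, Il1r2, Areg) 12491. The lowest were subcluster 4 (Ifit3, Rsad2, interferon-induced genes) at 10416 and subcluster 5 (Serpinb2, Il6, Hmox1) at 8811. Subcluster 5 was lowest for 59 of the 78 genes with at least 200 UMIs, and subclusters 6 and 7 were highest for 30 and 36. Cycling macrophages thus carried the most of these transcripts and the Serpinb2 macrophages the least, in cells grouped by the same counts.

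Depth and glycolytic genes differed along with it. Median UMIs per control cell were 14332.5 in subcluster 6, 14606 in subcluster 7, 4256 in subcluster 5 and 2372.5 in subcluster 4. The 24 listed genes of glycolysis and hypoxia were highest in subcluster 5, at 28351 CPM, and lowest in subcluster 6, at 13292. The part of depth in these levels was not tested.

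Single genes varied to different degrees between subclusters. Ndufs8, an iron-sulfur core subunit of complex I, ranged from 11 CPM in subcluster 5 to 37.8 in subcluster 7, a ratio of 3.43. Atp5g1 ranged from 128 to 384 (3-fold), Cox5a, a complex IV subunit, from 108 to 296 (2.74-fold), and Ndufa12 from 65.6 to 179 (2.73-fold), each lowest in subcluster 5. Cox4i2 had another pattern, highest in subcluster 3 at 10.6 and lowest in subcluster 2 at 4.12 CPM. Within subcluster 3 it stood at 8.18 in control and 13.4 in telmisartan cells, and it was higher with telmisartan in 6 of 7 subclusters and lower in subcluster 5 (9.56 and 8.44).

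The direction of the telmisartan difference was not the same in every subcluster. Subcluster 1, with 695 control and 1152 telmisartan cells, went from 12152 (12073 to 12233) to 12763 (12690 to 12837) CPM, a log2 ratio of 0.07 (0.06 to 0.08). Subcluster 3, with 733 and 782 cells, went from 13478 (13395 to 13562) to 12252 (12166 to 12339), at -0.14 (-0.15 to -0.12). Subclusters 4 and 5 were lower too, from 10901 to 10152 (-0.10) and from 9301 to 8397 (-0.15). Subcluster 2, with 1280 control and 336 telmisartan cells, stood at 14142 and 14282 (0.01), subcluster 6 at 15357 and 15023 (-0.03) and subcluster 7 at 15211 and 15078 (-0.01). The members were thus higher in the Dcstamp macrophages and lower in the Gas6, interferon and Serpinb2 macrophages of the telmisartan pool.

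Other genes and depth differed in these subclusters too. Cytosolic ribosomal protein genes were on the same side in subcluster 1 (102914 and 109502 CPM, 0.09), subcluster 4 (74844 and 73284, -0.03) and subcluster 5 (79578 and 73766, -0.11), and at 91688 and 92079 (0.01) in subcluster 3. Transcripts of the mitochondrial genome were at 0.16, -0.02, -0.12 and 0.02 in subclusters 1, 4, 5 and 3. In subclusters 2, 6 and 7 the ribosomal protein genes stood at 0.05, 0.07 and 0.04 and the mitochondrial genome at 0.16, 0.08 and 0.15, in 6 and 7 on the other side of 0 from the members. Proliferation genes were at 260 and 285 CPM (0.13) in subcluster 1, 648 and 479 (-0.44) in 3, 299 and 257 (-0.22) in 4, and 193 and 253 (0.39) in 5. Median depth was 10308 and 7487 UMIs in subcluster 1, 9867 and 7761.5 in 3, 2372.5 and 2466 in 4, and 4256 and 3737.5 in 5. The part of these in the values, and the differences between subclusters, were not tested.

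Counts of genes followed these sums. In subcluster 1, 24 of 76 genes were lower with telmisartan, where 42.2% of all genes were lower, and 9 (11.8%) were higher by 1.2-fold, where 24% of all genes were. In subcluster 3, 61 of 77 were lower (60.9% of all genes) and 19 (24.7%) lower by 1.2-fold (24.5% of all genes). In subcluster 5, 57 of 70 were lower (51.6% of all genes) and 20 (28.6%) lower by 1.2-fold (19% of all genes). In subcluster 4, 57 of 71 were lower (55% of all genes) and 16 (22.5%) lower by 1.2-fold (22.8% of all genes). Shares past the fold in subclusters 3 and 4 were near the share over all genes and so are not a result about the members, while the direction was shared by more members.

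The remaining subclusters were mixed. In subcluster 2, 32 of 76 were lower (56.2% of all genes) and 0 lower by 1.2-fold (20.3% of all genes). In subclusters 6 and 7, 46 of 76 and 41 of 73 were lower, near the 59.1% and 54.2% of all genes, with 2 and 7 lower by 1.2-fold (18.4% and 21% of all genes). Glycolysis and hypoxia genes were on the opposite side in subcluster 1 (19859 and 16765 CPM, -0.24) and in subcluster 3 (14510 and 17863, 0.30), and in subcluster 5 stood at 28821 and 27955 (-0.04). In subclusters 2, 4, 6 and 7 they stood at 0.06, 0.03, 0.21 and 0.09.

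**Figure D2:**
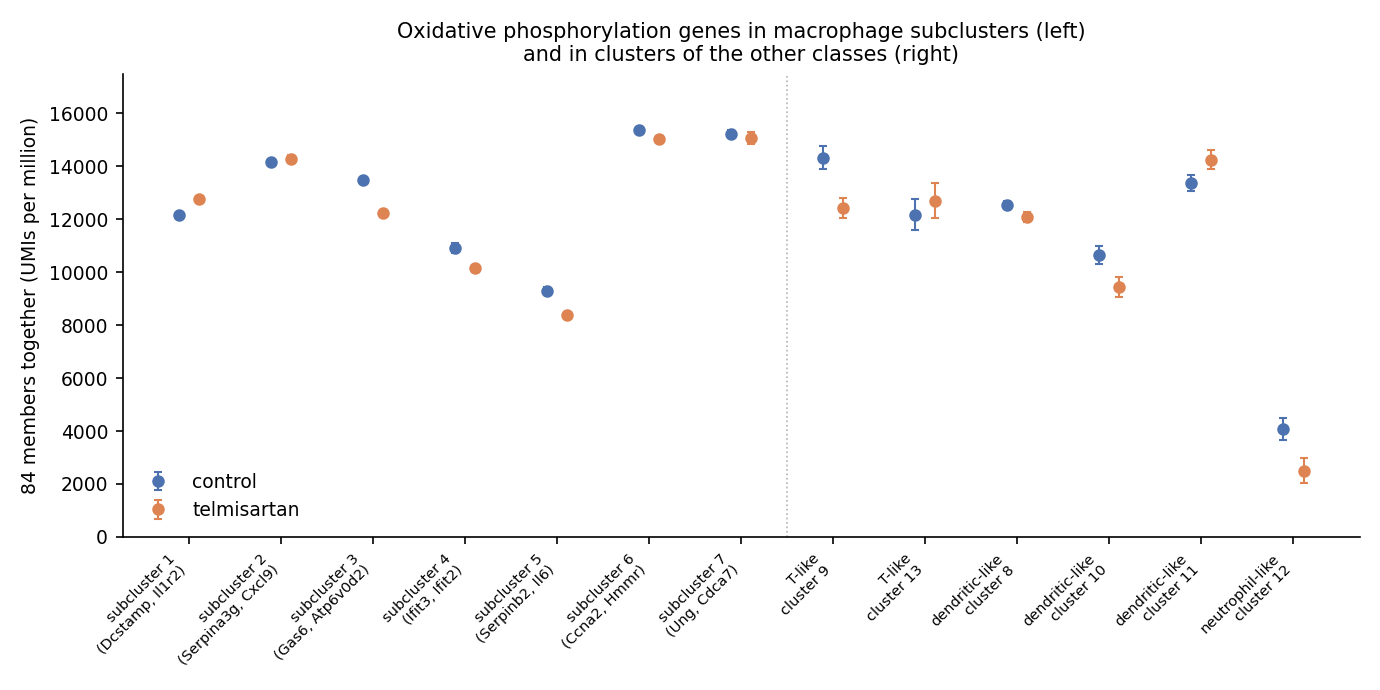
CPM of the 84 genes together in each macrophage subcluster (left) and each cluster of the other classes (right), for control (blue) and telmisartan (orange) cells; bars are exact 95% Poisson intervals. Subclusters 6 and 7 lie highest, subcluster 5 and the neutrophil-like cells lowest, and subcluster 1 and dendritic-like cluster 11 are higher with telmisartan while subclusters 3, 4, 5 and 6, dendritic-like clusters 8 and 10, T-like cluster 9 and the neutrophil-like cells are lower.

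Dendritic-like cells held nearly the same level in both groups. The members stood at 12435 (12307 to 12564) CPM in control and 12208 (12058 to 12360) in telmisartan cells, a log2 ratio of -0.03 (-0.05 to 0.00). Of 78 genes with at least 20 UMIs, 44 were lower, where 55.4% of all genes were, a share near the background. Lower by 1.2-fold were 6 (7.69%: Atp5s, Cox6b2, Ndufa10, Ndufb5, Ndufb7 and Ndufs4), against 27.1% of all genes, and higher by as much were 5 (6.41%), against 18.7%. Those 5 were Ndufa4, Sdhb, Ndufb8, Ndufa13 and Ndufs8, of which Ndufa4 moved most, from 46.6 to 75 CPM (0.69, 0.35 to 1.03). The lower and upper quartiles of the log2 ratio were -0.11 and 0.06 over the members and -0.29 and 0.18 over all genes. Over the 1694 genes of similar abundance they were -0.16 and 0.15. The part that the high counts of the members play in these shares was not tested.

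The 3 dendritic clusters differed. Cluster 8 (Cd209a), with 251 control and 211 telmisartan cells, stood at 12530 and 12073 CPM (-0.05). Cluster 10 (Ccr7, Fscn1, markers of mature migrating cells) had the lowest level and stood at 10646 and 9448 (-0.17), from 61 and 48 cells. Cluster 11 (Xcr1, Clec9a, markers of cross-presenting cells) stood at 13367 and 14252 (0.09, 0.04 to 0.14), from 54 and 39 cells. Median depth differed on the same side as the members, at 7784 and 5937 UMIs in cluster 8, 5776 and 4811.5 in cluster 10, and 8993 and 10873 in cluster 11. Cytosolic ribosomal protein genes stood at 0.03, -0.16 and -0.02 in clusters 8, 10 and 11, and the mitochondrial genome at -0.03, 0.11 and -0.17. The part of depth was not tested. The near-equal sum of the class thus covered clusters on both sides of 0.

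The T-like cells formed clusters 9 and 13, taken one by one because cluster 9 also led with Gzma and Nkg7 of the NK list. The other listed NK markers, Klrb1c and Ncr1, did not pass the rule for naming clusters in cluster 9 or 13. Nkg7 passed it in cluster 13 too. Cluster 9 (Gzmc, Ifng, Cd8a), with 50 control and 92 telmisartan cells, went from 14310 (13885 to 14745) to 12405 (12031 to 12789) CPM, a log2 ratio of -0.21. Cluster 13 (Foxp3, the regulator of regulatory T cells), with 22 and 21 cells, stood at 12170 (11594 to 12767) and 12695 (12060 to 13354), with overlapping intervals. Cytosolic ribosomal protein genes of cluster 9 were on the same side (141373 and 129418 CPM, -0.13), and those of cluster 13 stood at -0.02. Transcripts of the mitochondrial genome were on the other side in cluster 9 (72950 and 83302, 0.19) and stood at 0.15 in cluster 13. Median depth was 3396.5 and 2827.5 UMIs in cluster 9 and 4466.5 and 4755 in cluster 13. The sum of both clusters was 13637 and 12481 (-0.13, -0.18 to -0.08), and ranged from -0.73 to -0.03 over the other ways of processing. Macrophage RNA also differed in these cells. The 11 macrophage markers, all present and led by Lyz2, held 5796 CPM in control and 3506 in telmisartan T-like cells, and their part in the result was not tested.

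Neutrophil-like cells had far less of the module than any other class. The members held 4068 (3676 to 4491) CPM in control and 2475 (2047 to 2967) in telmisartan cells, from 393 and 117 UMIs. The log2 ratio of -0.72 (-1.03 to -0.42) rests on 48 and 24 cells with medians of 1730 and 1796 UMIs, and ranged from -1 to -0.36 over the other ways of processing. Neutrophils were lowest for 76 of 78 genes. Ndufc1, an accessory subunit of complex I, stood at 121 CPM in macrophage-like cells and Ndufa4 at 111 CPM in T-like cells, and each had 1 UMI in neutrophil-like cells. Uqcr11 and Ndufa9 stood at 108 and 75.9 CPM in macrophage-like cells and at 6.95 CPM each in neutrophil-like cells. Atp5s, Cox7a1, Ndufa5, Ndufa8, Ndufs3 and Uqcrc1 stood at 0 in neutrophil-like cells, so they had no ratio between classes. Cytosolic ribosomal protein genes moved alike in these cells, from 26667 to 15888 CPM (-0.75). Transcripts of the mitochondrial genome went from 38075 to 28646 (-0.41), and glycolysis and hypoxia genes went the other way, from 15249 to 18089 (0.25). The 7 neutrophil markers, led by S100a9 and with Ly6g at 0, went from 17215 to 9224, and the 11 macrophage markers, again all present and led by Lyz2, from 4130 to 2221. The part of RNA from other cells was not tested.

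Among the other classes no single one led. Of the 78 genes, 33 were highest in T-like, 32 in macrophage-like and 12 in dendritic-like cells. T-like includes cluster 9, whose leading genes held Gzma and Nkg7 of the NK list. Ndufa4 was 111 CPM in T-like against 42.1 in macrophage-like cells, and Cox7a2l was 316 in dendritic-like against 205 in macrophage-like cells, both named after their values were seen. The remaining gene, Cox4i2, was listed highest in neutrophil-like cells from 1 UMI. Cox4i2 held 6.5 CPM in macrophage-like and 0.802 in dendritic-like cells.

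Genes outside the 84 that build or feed the chain were mostly lower in macrophage-like cells too. The 15 listed assembly factors of complex I held 181 and 151 CPM (-0.26, -0.31 to -0.20), with 15 of 15 lower and 7 past 1.2-fold. The largest were Nubpl (7 and 5.15, -0.44), which inserts iron-sulfur clusters, and Ndufaf4 (21.3 and 15.9, -0.42). Over the assembly factors of all complexes 41 of 49 were lower, 13 by 1.2-fold, among them Taco1, a translational activator of mt-Co1 (6.08 and 3.07, -0.99), Sdhaf3 (-0.70), Bcs1l (-0.51) and Cox10 (-0.43). Higher by as much were Sco2 (0.48), a copper chaperone of complex IV, and Ttc19 (0.34). The 77 mitochondrial ribosomal protein genes held 2996 and 2705 CPM (-0.15), with 63 lower. Over all genes in these cells 57.1% were lower and 17.5% lower by 1.2-fold. At an equal mix of subclusters, also added after the data were seen, complex I assembly factors stood at -0.17 (14 of 15 lower, 4 by 1.2-fold), all assembly factors at -0.09 (39 of 49) and mitochondrial ribosomal proteins at -0.07 (54 of 77).

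Carriers and fuel pathways followed the same side. The electron carriers were at 576 and 523 CPM (-0.14), and Cycs, cytochrome c itself, fell from 132 to 98.8 (-0.41, -0.48 to -0.35). Genes of the TCA cycle were at 1293 and 1180 (-0.13), with Idh3a (39.4 and 27, -0.55), Dld (-0.39) and Suclg1 (-0.31) lower, and Acod1, which diverts the cycle to itaconate, higher (123 and 157, 0.36). Among carriers of the inner membrane the ADP/ATP exchangers Slc25a4 and Slc25a5 were both at -0.32, and the phosphate carrier Slc25a3 was at 0.29. Of the 13 regulators of mitochondrial biogenesis measured, 9 were lower, with Ppargc1b (-0.61), Tfb1m (-0.46), Tfam (-0.36) and Esrra (-0.30) past 1.2-fold, while Pprc1 (0.43) was higher. The 9 of 13 lie near the share over all genes. The electron carriers at an equal mix stood at -0.09, the TCA cycle at -0.08, the inner membrane carriers at -0.05 and the regulators at -0.01. Of the 7 inner membrane carriers, 0 were then lower and 1 higher by 1.2-fold, where 14% and 13% of all genes were.

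The mitochondrial genome and glycolysis were on the other side of 0. The 13 protein-coding transcripts of the mitochondrial genome held 74955 CPM in control and 81187 in telmisartan macrophage-like cells (0.12), led by mt-Co1 at 26632 and 30257. They were mixed, with 8 of 13 higher, where 57.1% of all genes were lower. A limit on the share of these transcripts was used to keep cells, so their level is bounded by that filter. The glycolysis and hypoxia genes held 16173 and 17262 (0.09), with 20 of 24 higher, where 57.1% of all genes were lower. Adm (0.84), Hk2 (0.58), Slc16a3 (0.50), Ndrg1 (0.46) and Vegfa (0.35) were past 1.2-fold, where 15.6% of all genes were higher by as much. Cytosolic ribosomal protein genes were at 99392 and 98799 (-0.01), with values that differed between subclusters as given above, and the 11 housekeeping genes were at 30089 and 27904 (-0.11), close to the members. At an equal mix the mitochondrial genome stood at 0.09, cytosolic ribosomal proteins at 0.04 and housekeeping genes at -0.04. Glycolysis and hypoxia genes stood at 0.03 by the same weights, with 8 of 24 lower, where 56.5% of all genes were. Past 1.2-fold were 3 higher and 1 lower (13% and 14% of all genes).

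Measures of cell and RNA quality differed between the groups in the same cells. Nuclear-retained RNA, 91.8% of it Malat1, stood at 3244 CPM in control and 4375 in telmisartan macrophage-like cells (0.43), and at 3476 and 3977 (0.19) at an equal mix of subclusters. Median depth was 8977 and 6463 UMIs, and the members were higher in deeper cells, from 7675 CPM in control cells with 500 to 2000 UMIs to 14725 in those over 20000. Within depth bins the log2 ratio was 0.02, -0.07, -0.06, -0.03 and 0.02 from the shallowest to the deepest bin, with intervals that span 0 in the shallowest (-0.05 to 0.09) and the deepest (-0.01 to 0.05). Within bins of mitochondrial share (0 to 5%, to 10%, to 15%, to 20%) it was -0.16, -0.08, -0.08 and -0.11. The part of depth and RNA quality in the difference was not tested.

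**Figure D3:**
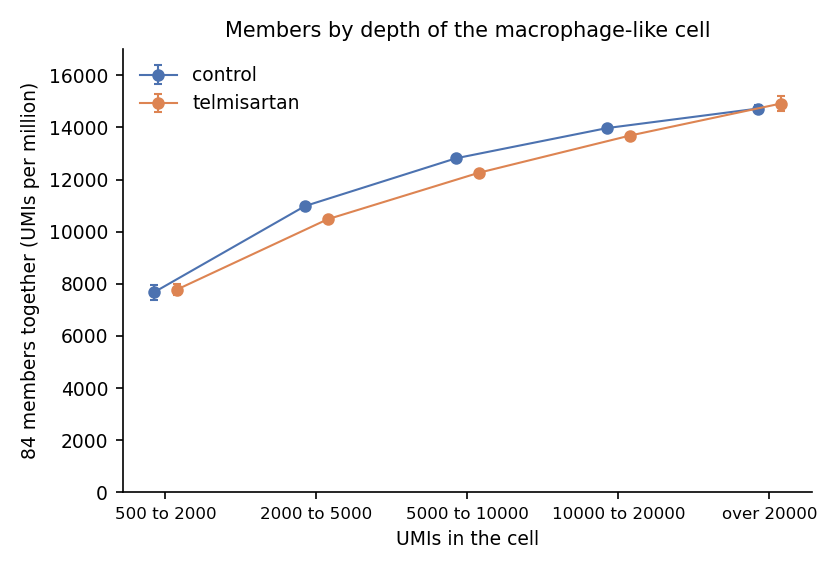
CPM of the 84 genes together in macrophage-like cells grouped by UMIs per cell, for control and telmisartan cells; bars are exact 95% Poisson intervals. The members rise with depth in both groups, and the telmisartan value is lower in the 3 middle bins and not in the bins of 500 to 2000 and over 20000 UMIs, the last with 34 telmisartan cells.

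Scaling moved all genes alike. Per cell, with no scaling for depth, the median of all genes was -0.45, and relative to that median 53 of the 80 members were lower (50% of all genes by definition), 3 of them by 1.2-fold (12.9% of all genes), and 3 higher by 1.2-fold (18.5% of all genes). Without that reference 79 of the 80 were lower per cell, where 91.2% of all genes were, Atp5d and Cox7a1 among them, and Cox4i2 alone was higher. Relative to the median of all genes, the other scalings of the summed counts give the same numbers by construction. Each shifts all genes by the same amount, so this is no check of the result.

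The members' transcripts shared features that the rule did not use. Their median length was 648 bases against 2055 over 19990 protein-coding genes, and their median G+C content was 52.5% against 50%. The log2 ratio in macrophage-like cells rose with G+C content across the 80 genes, which are not independent replicates (Spearman's rho 0.35, and 0.20 over 10665 genes). In the 20 members lowest in G+C (42% to 49.3%) the median was -0.19 with 18 of 20 lower, and in the 20 highest (55.4% to 61.1%) it was -0.02 with 11 of 20 lower. All genes in those ranges had medians of -0.09 and 0.04, with 65.1% and 43.4% of them lower. A gradient with base composition was thus present in the members and over all genes, and its part in the difference was not tested.

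Promoters from RefSeq (GRCm38.p6), 250 bases before to 50 after the start, were found for 68 of the 84 genes. Among those not matched were Atp5a1, Atp5mpl, Cox4i1, Cox4i2, Cox6a2, Cox6c, Cox8c, Ndufa2, Ndufa4l2, Ndufb9, Ndufs1, Sdhc, Uqcrb, Uqcrc2 and Uqcrq. Both strands were searched for GCATGCG, the core of the motif of NRF1, a regulator of respiratory chain genes, for CCGGAAGT, an ETS motif, for CCAAT and for GGGCGG, a GC box. The NRF1 core was in the promoters of 11 genes (16.2%, against 4.01% of 27025 genes) and the ETS letters in 5 (7.35% against 4.31%). CCAAT was in 30 (44.1% against 41.1%) and GGGCGG in 28 (41.2% against 38.2%), and 17 had none of the 4. The 11 genes with the NRF1 core had a median log2 ratio of -0.04 in macrophage-like cells, and the 55 measured genes without it -0.13. The medians with and without were 0.00 and -0.13 for the ETS letters, -0.09 and -0.13 for CCAAT and -0.09 and -0.11 for GGGCGG. The gap lay to the same side for each of the 4, but all 4 splits divide the same genes. No such medians were taken over all genes, and the gaps were not tested. A match describes letters in a window and not a bound site.

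The 250 bases before the start are printed 5′ to 3′ on the strand of the gene for the genes among the most abundant of their complex whose bases before the start held the NRF1 core or the ETS letters, so that the motifs can be seen in place. Capitals mark every match to the 4 motifs on either strand. The NRF1 core can match on both strands at one place, since GCATGC is its own reverse complement, and no match overlapped one of another motif. Atp5g2 (chr15:102671048-102671297, minus strand) and Atp5l (chr9:44920743-44920992, minus strand) carry the NRF1 core on both strands at 1 place, Atp5l beside a CCAAT. Sdhb (chr4:140961021-140961270, plus strand) carries it once with 3 GC boxes and a CCAAT box, and Uqcrh (chr4:116075071-116075320, minus strand) carries the ETS letters and a CCAAT box.
Atp5g2: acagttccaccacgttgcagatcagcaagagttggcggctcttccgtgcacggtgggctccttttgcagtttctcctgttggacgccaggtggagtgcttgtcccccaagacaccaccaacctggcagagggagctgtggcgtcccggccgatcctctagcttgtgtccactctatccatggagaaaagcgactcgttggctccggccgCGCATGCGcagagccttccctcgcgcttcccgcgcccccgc
Atp5l: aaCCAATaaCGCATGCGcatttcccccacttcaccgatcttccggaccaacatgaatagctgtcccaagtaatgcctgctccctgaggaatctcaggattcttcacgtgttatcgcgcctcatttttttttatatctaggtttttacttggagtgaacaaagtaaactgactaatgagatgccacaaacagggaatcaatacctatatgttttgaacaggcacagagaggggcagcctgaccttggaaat
Sdhb: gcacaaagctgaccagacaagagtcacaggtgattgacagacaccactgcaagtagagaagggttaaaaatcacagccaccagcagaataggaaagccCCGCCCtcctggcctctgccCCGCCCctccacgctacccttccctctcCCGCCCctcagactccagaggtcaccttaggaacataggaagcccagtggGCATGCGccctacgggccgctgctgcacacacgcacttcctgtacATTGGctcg
Uqcrh: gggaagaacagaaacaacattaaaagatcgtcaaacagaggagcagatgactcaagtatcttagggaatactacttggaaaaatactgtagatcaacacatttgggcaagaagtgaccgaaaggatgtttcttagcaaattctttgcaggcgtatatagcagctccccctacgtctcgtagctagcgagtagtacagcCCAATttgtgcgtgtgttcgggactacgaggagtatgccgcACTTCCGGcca

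Outside the kept cells the module was also present. Cells over 20% mitochondrial UMIs, 3586 control and 5373 telmisartan, held 5880 and 6332 CPM of the members (0.11, 0.08 to 0.13). With the mitochondrial genome's transcripts left out of the total the same cells held 12635 and 12712, closer to the kept cells. The 74 control and 16 telmisartan cells over 5000 genes held 15559 and 15285. The lower level with telmisartan was thus seen in the kept macrophage-like cells and not in the cells over the mitochondrial limit, and classes were not assigned there.

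Several limits apply to these counts. Each group was 1 pool of 5 mice, so differences between mice and between pools cannot be told apart from an effect of telmisartan. The telmisartan cells were shallower and lost more cells to the mitochondrial limit, with 47.3% within all limits against 58.1% of control cells. Cell classes were named from markers in the same counts, and T-like and neutrophil-like cells were few. Transcript levels of subunits do not give the amount or activity of the complexes, which was not measured here.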

How the data were processed

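Whole-transcriptome and Sample Tag libraries of 1 pooled capture were used. The authors deposited UMI counts per gene and cell and Sample Tag read counts per cell from the BD Rhapsody pipeline 1.11 (GRCm38, GENCODE M19, intronic reads counted). A cell was assigned to the tag holding at least 75% of at least 10 tag reads, leaving out 1580 split cells and 186 with few reads. Cells with 150 to 5000 genes and at most 20% mitochondrial UMIs were kept, and the 942 with the highest Scrublet scores (scanpy 1.11.5) were removed, a share estimated from cells carrying both tags, since the automatic threshold marked 0. Seurat 5.3.0 clustered them (2000 variable genes, 30 components, resolution 0.5), and clusters were named from marker lists. A second clustering of macrophage-like cells used resolution 0.45, the first on a grid to give 6 or more clusters. For each class and group, UMIs were added up and given per 1000000 (CPM). With 1 pool per group no test was made. Differences are log2 ratios with exact conditional binomial 95% intervals, levels have exact Poisson and shares exact Clopper-Pearson intervals, and a gene was counted past a fixed fold of 1.2 either way. The text names the 2 most abundant genes of each complex, genes past that fold in macrophage-like (with at least 200 UMIs) and dendritic-like cells, isoform families, genes under 20 UMIs, the 5 most variable across classes or subclusters, and up to 5 each way per other list. Ratios across classes were taken only for genes with a UMI in every class. Members and lists were chosen with earlier results of these data known. The code was tested on simulated data. Alternatives changed tag share, limits, doublets, resolution, scaling (edgeR 4.0.16) and depth.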

Additional observations from a re-analysis of the deposited data

Results flagged for a closer look

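Within the macrophage-like cells, the sum of the 84 genes differed in direction between subclusters. The log2 ratio of telmisartan over control was 0.07 in subcluster 1 (Dcstamp, Il1r2), and -0.14 in subcluster 3 (Gas6, Cbr2), -0.10 in subcluster 4 (Ifit3, Rsad2), -0.15 in subcluster 5 (Serpinb2, Il6) and -0.03 in subcluster 6 (Ccna2, Top2a). The counting interval of each left out 0, and with 1 pool per group the difference between subclusters was not tested.

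Within the dendritic-like cells the same sum was at 0.09 in cluster 11 (Xcr1, Clec9a), and at -0.05 in cluster 8 (Cd209a) and -0.17 in cluster 10 (Ccr7, Fscn1). That difference was not tested either.

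Of the 8041345 Sample Tag reads, 0.0794% were on tags other than 1 and 2, which label no group here. This is above a count of 0 and was not used.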

How the results depend on the processing

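The sum of the members in macrophage-like cells (log2 ratio -0.10) was lower with telmisartan under 21 of 23 alternatives. It reversed in sign in cells with 500 to 2000 UMIs (0.02) and over 20000 UMIs (0.02), both with intervals that span 0, and was -0.07 at 2000 to 5000, -0.06 at 5000 to 10000 and -0.03 at 10000 to 20000; the cause was not tested. Added after the data were seen, an equal mix of depth bins gave -0.04 (complexes I to V -0.05, -0.04, -0.06, -0.03, -0.04) and an equal mix of subclusters -0.03 (-0.03, -0.05, -0.04, -0.01, -0.03, median gene -0.03). Also added later, leaving out the shallow cluster led by interferon-induced genes gave -0.08 (complex IV -0.06, complex V -0.09) and totals without mitochondrial genome transcripts -0.09.

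UMIs per cell with no scaling gave -0.51 (complexes I to V -0.51, -0.54, -0.52, -0.49, -0.52, median gene -0.51), -0.23 in dendritic-like and -0.73 in T-like cells. The mean over cells of UMIs per 10000 gave -0.13 (complexes -0.12, -0.17, -0.15, -0.12, -0.14), -0.36 for neutrophil-like and -0.07 for T-like cells. Its ln(1 + x) form gave -0.15 (complexes -0.15, -0.22, -0.21, -0.16, -0.18), -0.06 in dendritic-like and -0.03 in T-like cells. Thinned cells gave -0.11 (complexes I, III, IV and V -0.11, -0.13, -0.09, -0.12) and -0.06 in dendritic-like cells. Median-of-ratios factors gave -0.11 (complexes I, IV and V -0.11, -0.09, -0.12) and 0.00 in dendritic-like cells, and TMM -0.11 (complex V -0.12).

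Without mitochondrial and cytosolic ribosomal genes in the totals, with at least 500 genes per cell and with no doublet removal the sum was -0.09 (complex V -0.10 in the last), and with no upper limit on genes -0.11 (complex V -0.12). A tag share of 90% gave -0.07 in dendritic-like and -0.05 in T-like cells, and resolution 0.3 gave -0.06 in dendritic-like cells. The causes were not tested. Each complex kept its direction under all 18 of its alternatives, and the median gene under 20 of 20. The T-like and the neutrophil-like sums did so under 15 of 15, and dendritic-like cells under 14 of 15, with 1 at 0.00. The single depth bins, where the macrophage-like sum reversed at the shallow and deep ends, were run for that sum alone. They are not among these counts. At resolution 0.8 and at 500 genes, 555 and 1047 shallow cells could not be named and were left out. No paired analysis was possible because each group is 1 pool. Depth limits the neutrophil-like cells most, with 393 and 117 member UMIs, and intronic reads and reads from related gene copies cannot be told apart in these counts.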

Other observations

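Stress and mitophagy genes listed beside the chain moved apart in macrophage-like cells. The 13 genes together held 1185 UMIs per 1000000 (CPM) in control and 1345 in telmisartan cells (log2 ratio 0.18), and without Sqstm1, the most abundant, the ratio was -0.06. Sqstm1, an adaptor of selective autophagy, went from 208 to 406 (0.97). Trib3 (0.68), Ddit3 (0.60), Pink1 (0.49) and Atf4 (0.41), genes of the stress response and mitophagy, were higher past 1.2-fold, where 15.6% of all genes were. The mitochondrial chaperones Hspd1 (161 and 111, -0.53) and Hspe1 (287 and 228, -0.33) were lower. With equal subclusters the 13 genes stood at 0.15, with 5 higher and 1 lower by 1.2-fold, where 13% and 14% of all genes were. The 14 proliferation genes were at 1101 and 1038 (-0.09), with 6 lower by 1.2-fold, where 17.5% of all genes were, among them Mcm2 and Mcm5 at -0.48. At an equal mix of subclusters they stood at -0.04 with 2 lower by 1.2-fold. Among the housekeeping genes Actb was at -0.28. The carriers and uncoupling list held 3935 and 3578 (-0.14), of which Ucp2 made up 58.6%.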
